A study of Mus musculus with 42 samples.

Results

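Gasdermin genes of mouse chromosome 15 were followed through RNA-seq of colonic epithelium and stroma: the Gasdermin C cluster (Gsdmc, Gsdmc2, Gsdmc3 and Gsdmc4) and gasdermin D (Gsdmd). These 5 genes were chosen by the normalized counts of Gsdmc3 and Gsdmc4, which were far lower in organoids kept with IL-17A for 72 h than in controls, so the values of that one contrast are given here as a description with no test. Rows bearing their symbols were looked up in all 12 deposited tables, and 4 of the 5 genes had one in every table, among 19263 gene symbols with a row in any table and 12186 with a row in all. Gsdmc itself was not analysed here. Gsdmc2, Gsdmc3, Gsdmc4 and Gsdmd passed the filter on low values (a mean of at least 10 normalized counts in the table) in all 12 tables.

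Gasdermins are cytosolic proteins that, once cut by a protease, release an amino-terminal fragment which forms pores in the plasma membrane. Gsdmd is the classical substrate of the inflammatory caspases downstream of the inflammasomes, and its pore lets IL-1β and IL-18 out of the cell and can end in lytic cell death (pyroptosis). Gsdmc genes are expanded in the mouse as a tandem array, are expressed in the intestinal epithelium, and are known to respond to type 2 cytokines acting through the IL-4 receptor chain and Stat6.

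The study asked how bone morphogenetic protein (BMP) signaling in Gli1+ stromal cells acts on the goblet cells of the large intestine, and which cytokines link both compartments. Mice carried Gli1-CreERT2 alone (the control, called GWT), with Smad4 fl/fl (GS4) or with Alk3 fl/fl (GA3; Alk3 is the BMP receptor gene Bmpr1a). The mice were 2 to 4 months old, all of them received tamoxifen, controls included, and cells were taken on day 30 from the proximal and the distal colon. Goblet cells were sorted by a Muc2-mCherry reporter (GWTM2, GS4M2 and GA3M2), and Gli1-lineage stromal cells by a tdTomato reporter that recombines with the same Cre (GWTT, GS4T and GA3T). Each of these 12 groups had 2 libraries. Cre acts in Gli1-lineage cells, so in the Muc2-mCherry groups the sorted cells are not themselves the target of the deletion. Organoids from wild-type colon, grown in a medium with EGF, Noggin, R-spondin1, Wnt3a and CHIR, were left untreated or received 10 nM IL-1 (IL-1α with IL-1β) or 10 nM IL-17A for 12 or 72 h, with 3 libraries per group. Noggin blocks BMP ligands and was in the medium of treated and control organoids alike. The labels do not say whether libraries of a group came from separate mice or cultures, so p-values measure the spread between these libraries, which may be technical.

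The 42 labelled libraries held 14222902 to 23686940 reads on named genes (median 17158199), recovered as whole reads from the deposited values. Control organoids at 12 h replicate 2 and at 72 h replicate 1 held identical reads, as did replicate 4 at both times, which leaves 40 distinct libraries, 16 of them from organoids. Some other organoid libraries were far closer than the rest (chi-square per gene of 3.03 to 4.67 against 26.3 to 213 for the remaining same-group organoid pairs): replicates 3 and 4 of IL1-12h, replicates 3 and 4 of IL17A-12h, replicates 2 and 4 of Control-72h, and replicate 1 of IL1-12h with replicate 1 of IL17A-12h. All of these differed by more than sampling noise and were kept. A supplementary table of the study holds other values for replicate 2 of IL1-72h and of IL17A-72h than the deposited tables, which were used here. Smad4 was lower in GS4T than in GWTT cells (proximal 705 to 835 against 1604 to 1673 normalized counts, -1.09 ± 0.12 on the log2 scale, limma adjusted p = 0.010; distal 680.3 to 1171 against 1703 to 1781, -0.96 ± 0.25, adjusted p = 0.042, under the size of 1 needed for a call), and Bmpr1a was lower in GA3T cells without passing the test (proximal 1842 to 2233 against 2960.0 to 3220.3, -0.61 ± 0.14, limma adjusted p = 0.12; distal 2043 to 2203 against 3359 to 3485, -0.69 ± 0.11, adjusted p = 0.10). By reads of Xist and of Y-linked genes, sexes were mixed within some groups, and the 3 IL17A-72h libraries and all goblet knockout libraries were male.

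On mm10 (GRCm38, GENCODE M21 annotation), Gsdmc lies at chr15:63775968-63808759, Gsdmc2 at chr15:63824346-63845177, Gsdmc3 at chr15:63857724-63878558 and Gsdmc4 at chr15:63891264-63912297, all on the minus strand within 136.33 kb. Gsdmd lies 11.95 Mb further on, at chr15:75862327-75867408 on the plus strand. Gsdmc2, Gsdmc3 and Gsdmc4 each have a coding sequence of 1443 bases for 480 residues, and Gsdmd has 1464 bases for 487 residues. The coding sequences of Gsdmc2 and Gsdmc3 were 97.1% identical, and Gsdmc4 was 93.7% and 93.8% identical to them. Against Gsdmd, these 3 genes were 53.6% to 55.0% identical.

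This likeness bears on what the tables can separate, because only uniquely mapped reads were kept, and a read that lies in a shared stretch is assigned to none of the copies. Of all stretches of 50 bases in their transcripts, 51.5% were unique to Gsdmc2, 53.1% to Gsdmc3, 61.0% to Gsdmc4 and 100% to Gsdmd among these genes. With stretches of 150 bases the shares were 83.4%, 80.7% and 91.2% for the 3 cluster genes. The read length was not given in the sources used here. The next sequences show both extremes within single exons, each written 5′ to 3′ on the coding strand from the mm10 transcripts. In the coding bases 85 to 204 the 3 genes are identical over 120 bases, at chr15:63835740-63835859 (Gsdmc2), chr15:63869094-63869213 (Gsdmc3) and chr15:63902727-63902846 (Gsdmc4), so that a read inside it has 3 equal origins.
Gsdmc2, Gsdmc3 and Gsdmc4: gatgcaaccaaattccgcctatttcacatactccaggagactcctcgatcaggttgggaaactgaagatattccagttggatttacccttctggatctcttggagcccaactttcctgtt
The coding bases 968 to 1087 are the stretch of this length in which they differ most, with 10 differing positions in capitals, at chr15:63826168-63826287 (Gsdmc2), chr15:63859595-63859714 (Gsdmc3) and chr15:63893121-63893240 (Gsdmc4).
Gsdmc2: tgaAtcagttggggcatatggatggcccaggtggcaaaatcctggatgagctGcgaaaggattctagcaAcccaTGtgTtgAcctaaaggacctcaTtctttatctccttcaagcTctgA
Gsdmc3: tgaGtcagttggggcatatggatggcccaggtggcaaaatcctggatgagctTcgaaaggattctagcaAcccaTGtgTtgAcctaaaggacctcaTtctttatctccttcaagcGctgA
Gsdmc4: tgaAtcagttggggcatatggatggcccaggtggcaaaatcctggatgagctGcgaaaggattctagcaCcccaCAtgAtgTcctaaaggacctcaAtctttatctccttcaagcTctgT
Values of Gsdmc2 and Gsdmc3 therefore lack an unknown part of their reads, those of Gsdmc4 less so, and those of Gsdmd are unaffected by the cluster.

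Levels between genes were compared only per length, as RPKM, the recovered reads divided by the kb of annotated exon and by the library's reads on named genes (in units of 1e6). Shared stretches count in that length although their reads were not kept. RPKM of the cluster genes is thus too low by an unknown amount that differs between them. Shares of the cluster sum and ratios of Gsdmd to it carry this error. Control goblet cells held the cluster at high levels. Gsdmc4 reached 84.6 and 111 RPKM in the 2 GWTM2-Proximal libraries and 94.2 and 309 in the 2 GWTM2-Distal libraries, Gsdmc2 reached 77.6 and 95.3, and 37.8 and 156, and Gsdmc3 reached 30.6 and 29.0, and 18.5 and 51.6. The distal libraries thus lay further apart in all 3 genes than the proximal ones. Gsdmd was at 40.7 and 33.9 RPKM in the proximal and 64.7 and 33.4 in the distal control goblet cells, below the cluster sum in every goblet library. The ratio of Gsdmd to the sum of the 3 cluster genes ran from 0.0645 to 0.576 over all 12 goblet libraries.

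Control organoids had lower levels of the cluster, with Gsdmd in the range of goblet cells or just below it. Gsdmc4 was at 16.4 to 42.3 RPKM over the 6 labelled control libraries, Gsdmc2 at 6.02 to 7.33, Gsdmc3 at 1.69 to 3.67 and Gsdmd at 27.5 to 41.4. Gsdmc4 made up 64.6% to 80.7% of the cluster sum in them, against 26.1% to 62.6% in goblet cells. The ratio of Gsdmd to the cluster sum was 0.671 to 1.08. The library filed as Control-12h replicate 2 and Control-72h replicate 1 was the lowest control in Gsdmc3, Gsdmc4 and Gsdmd and the highest in Gsdmc2.

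Control stromal cells held little of the cluster but did hold Gsdmd. Gsdmc4 was at 0.0586 and 4.94 RPKM in GWTT-Proximal and at 1.97 and 4.28 in GWTT-Distal, and Gsdmd at 27.6 to 34.5 RPKM over these 4 libraries. In one fit over the 8 control libraries (limma on log2 of RPM plus 1, where RPM is reads scaled to a library of 1e6 reads on named genes, with Benjamini-Hochberg adjustment; a gene was called where the adjusted p lay under 0.05 and the log2 difference was 1 or more in size), 3 of 4 members were higher in goblet than in stromal cells of each segment. The proximal differences were 6.11 ± 1.01 (SE) for Gsdmc2, 5.03 ± 0.77 for Gsdmc3 and 5.83 ± 1.04 for Gsdmc4 (limma adjusted p = 0.0013, 0.00087 and 0.0019), and the distal ones were 4.98 ± 1.01, 5.0 ± 0.77 and 5.65 ± 1.04 (adjusted p = 0.0036, 0.00090 and 0.0023). Gsdmd differed by 0.33 ± 0.28 and 0.49 ± 0.28 and did not pass. The background was broad in both, with 42.1% of 12943 genes called for the proximal colon and 41.7% for the distal colon, and the median of all genes stood at 0.22 and 0.20. Between proximal and distal colon, 0 of 4 members were called in control goblet cells (1.45% of genes called) and 0 of 4 in control stromal cells (0.680%), edgeR called none of them either, and none had an unadjusted p under 0.05.

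In the order of RPKM means over the 18 groups, Gsdmc4 was highest in GS4M2-Distal (279 ± 105), followed by GWTM2-Distal (202 ± 152), GS4M2-Proximal (164 ± 72.5), GWTM2-Proximal (97.8 ± 18.7), GA3M2-Distal (66.4 ± 9.43) and GA3M2-Proximal (40.4 ± 13.9, all SD, n = 2). The columns of GS4M2-Proximal and GWTM2-Proximal stand under the opposite names in a supplementary table of the study, and with those names these 2 groups would exchange places. The lowest means were those of IL1-72h (3.67 ± 4.68, n = 3), GWTT-Distal (3.13 ± 1.64), GWTT-Proximal (2.50 ± 3.45) and IL17A-72h (1.92 ± 0.671, n = 3). Of the 17 steps between neighbours in this order, 14 were no larger than the larger SD of the pair, and the 3 others followed GWTM2-Proximal, GA3M2-Distal and GS4T-Proximal. Gsdmc2 and Gsdmc3 had 2 such larger steps each. Gsdmd was highest in IL1-72h (105 ± 9.58, n = 3) and IL17A-72h (93.8 ± 37.3, n = 3) and lowest in GWTT-Proximal (29.6 ± 2.81, n = 2), and none of its 17 steps exceeded the larger SD of the pair.

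In organoids kept with IL-1 for 72 h, the 3 cluster genes fell and Gsdmd rose. Gsdmc2 had 256, 229.6 and 207 normalized counts in Control-72h replicates 1, 2 and 4, and 4.82, 46.8 and 16.5 in IL1-72h replicates 1, 2 and 3. Gsdmc3 had 59.4, 129 and 124 against 2.41, 20.9 and 4.39. Gsdmc4, the most abundant of the cluster in organoids, had 518, 1332 and 1246 against 12.0, 317 and 68.0. Gsdmd had 988, 1483 and 1460.2 against 4305, 4374 and 5118.

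No IL-1 library overlapped a control library in any of the 4 genes, which was also the case for 54.7% of the 13023 genes tested. Within the IL-1 group, replicate 2 kept the most of all 3 cluster genes and replicate 1 the least, while the Gsdmd values of the 3 libraries lay close together. The log2 fold change (limma on log2 of the normalized count plus 1, with Benjamini-Hochberg adjustment over all genes of the table) was -3.77 ± 0.69 (SE) for Gsdmc2, or 10.2-fold lower by the means of 22.7 ± 21.7 and 231 ± 24.7 (SD, n = 3; adjusted p = 0.0062). For Gsdmc3 it was -3.75 ± 0.72, or 11.2-fold lower (9.24 ± 10.2 against 104 ± 38.6, limma adjusted p = 0.0074), and for Gsdmc4 -3.85 ± 1.02, or 7.80-fold lower (132 ± 162 against 1032 ± 447, limma adjusted p = 0.021). Gsdmd rose by 1.83 ± 0.19, or 3.51-fold (4599 ± 451 against 1311 ± 279, limma adjusted p = 0.0025). All 4 members were thus called, where 23.0% of all genes were called (12.2% lower and 10.9% higher). The controls of this contrast were among the libraries that chose the genes, so the IL-1 result is not independent of the choice.

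All 4 calls held under edgeR, DESeq2, with the sex of the libraries in the fit and without IL1-72h replicate 2. Gsdmc4 lost its call without Control-72h replicate 2 (-3.61, limma adjusted p = 0.063), Control-72h replicate 4 (-3.66, 0.061) or IL1-72h replicate 3 (-3.89, 0.065). Without the control libraries filed at both times, 1 control library was left and limma called 0 of the 4, at -3.77 for Gsdmc2, -4.13 for Gsdmc3, -4.34 for Gsdmc4 and 1.63 for Gsdmd (adjusted p = 0.062 to 0.14), while all 4 had an unadjusted p under 0.05.

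**Figure D1:**
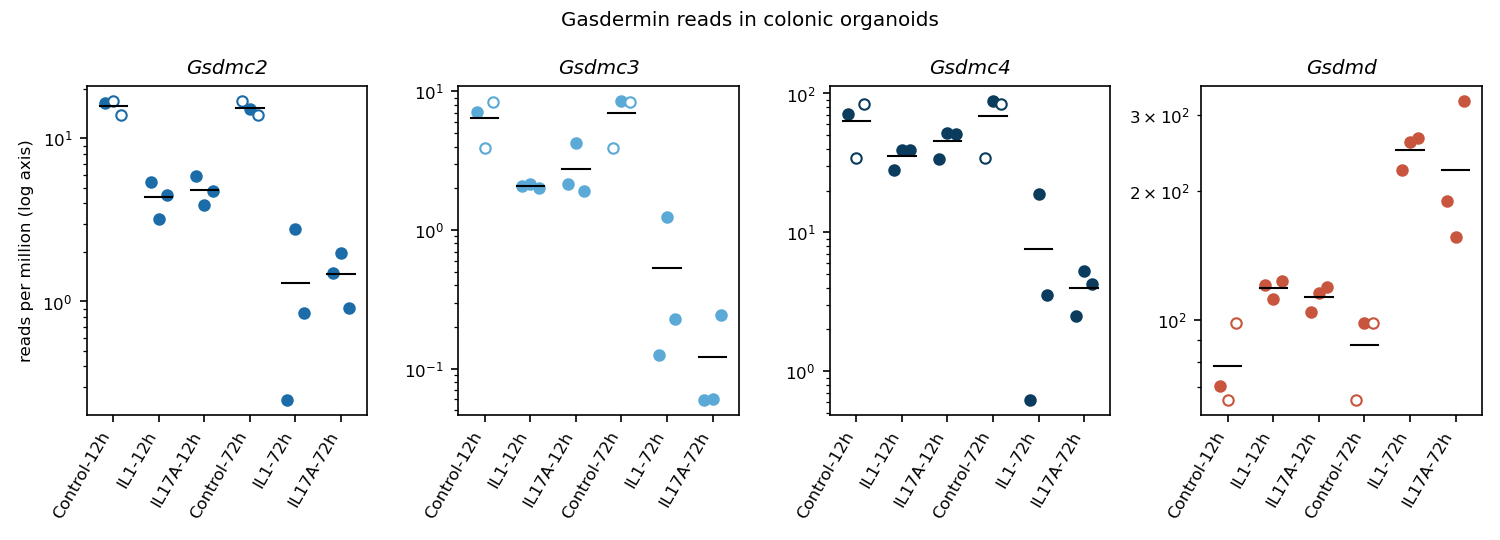
RPM (log axis) of Gsdmc2, Gsdmc3, Gsdmc4 and Gsdmd in each of the 18 labelled organoid libraries, 1 panel per gene, with the group mean as a line and open points for control libraries whose reads are filed at both times. After 72 h, the IL-1 and IL-17A points of the 3 cluster genes lie below all control points and those of Gsdmd above all of them.

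Counting error was widest for Gsdmc3. Summed over 3 libraries per group, Gsdmc4 had 390 reads with IL-1 against 3451 in controls, a ratio at equal depth of 8.88 (exact binomial 95% interval 7.99 to 9.89, counting error only). Gsdmc2 had 66 against 774 reads (ratio 11.8, 9.15 to 15.4) and Gsdmc3 had 27 against 348 (12.9, 8.74 to 19.9). The IL-1 reads of Gsdmc3 were split as 2, 21 and 4 over the replicates. For Gsdmd the ratio at equal depth was 2.87 (12632 against 4393 reads), lower than by the authors' size factors.

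After 72 h of IL-17A, the contrast that chose the genes, the values were as follows. Gsdmc2 had 256, 228 and 206 normalized counts in the controls of this table and 28.0, 31.1 and 18.9 in IL17A-72h replicates 1, 2 and 3. Gsdmc3 had 59.3, 128 and 124 against 1.12, 0.941 and 5.04, and Gsdmc4 had 517, 1324 and 1243 against 47.0, 82.8 and 86.9. Gsdmd had 986, 1475 and 1457 against 3558, 2443 and 6662. The groups did not overlap in any of the 4 genes, as in 45.3% of the 13073 genes, and 7.94% of genes were called in this table. That share rests on single libraries: the 1038 genes called by limma became 218, 4 and 3 without Control-72h replicates 1, 2 and 4, and 3, 3577 and 86 without IL17A-72h replicates 1, 2 and 3. The means were 8.86-fold lower for Gsdmc2, 43.8-fold lower for Gsdmc3 and 14.2-fold lower for Gsdmc4, and 3.23-fold higher for Gsdmd, where replicate 3 was the highest and replicate 2 the lowest. The Gsdmc3 ratio rests on 6 reads (1, 1 and 4) against 348. At equal depth it was 57.3, a value that so few reads leave very uncertain.

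The cytokine groups shared their controls, and the IL-17A values below are those that chose the genes, so they are a description. The ratio of Gsdmd to the cluster sum, per length, was 204, 10.2 and 51.8 in IL1-72h replicates 1, 2 and 3, and 42.6, 19.2 and 53.9 in IL17A-72h. The control values at 72 h and 12 h ended at 1.08. Gsdmc4 remained the most abundant cluster gene, at 64.9% to 83.9% of the sum with IL-1 and 64.2% to 80.1% with IL-17A.

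After 12 h, no member passed the test with either cytokine in the fit without pairing, and with the shared replicate numbers as a block 3 members fell with IL-1 and 2 with IL-17A. Control-12h replicates 2 and 4 hold the same reads as controls of the contrast that chose the genes. No comparison with the 12 h controls is therefore independent of the choice. With IL-1, Gsdmc2 had 268, 270.4 and 216 normalized counts in Control-12h replicates 1, 2 and 4 and 89.0, 52.0 and 72.7 in IL1-12h replicates 1, 3 and 4. Gsdmc3 had 114, 62.7 and 129 against 34.5, 34.9 and 32.6, and Gsdmc4 had 1149.9, 546 and 1298 against 466, 636 and 638. Gsdmd had 1141, 1042 and 1522 against 1997, 1828 and 2001. Treated libraries lay below all controls in Gsdmc2 and Gsdmc3, overlapped them in Gsdmc4, and lay above them in Gsdmd.

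With IL-1 at 12 h the difference was -1.83 ± 0.24 for Gsdmc2 (limma unadjusted p = 0.00013, adjusted p = 0.11), -1.49 ± 0.31 for Gsdmc3 (adjusted p = 0.51), -0.70 ± 0.33 for Gsdmc4 (adjusted p = 0.89) and 0.67 ± 0.16 for Gsdmd (adjusted p = 0.65). By the means, Gsdmc2 was 3.53-fold lower (71.2 ± 18.6 against 251 ± 30.9, SD, n = 3) and Gsdmc3 3.00-fold lower (34.0 ± 1.24 against 102 ± 34.9). Thus 0 of 4 members were called by limma, as by edgeR, where 0.0542% of 12913 genes were called by limma. DESeq2 called Gsdmc2 and Gsdmc3 (0.333% of genes), and the unadjusted p with the same fold rule passed the same 2 (0.922%). Groups did not overlap in 3 of 4 members, against 9.53% of all genes. With the replicate block, limma called Gsdmc2 (-1.57 ± 0.18, adjusted p = 1.1e-06), Gsdmc3 (-1.83 ± 0.26, adjusted p = 2.6e-05) and Gsdmc4 (-1.16 ± 0.10, adjusted p = 2.0e-09), where 0.774% of genes were called, and Gsdmd differed by 0.60 ± 0.09. Only replicates 1 and 4 occur in both groups, so the blocked values rest on 2 libraries a group. Little spread between libraries was left to estimate in this fit. Its p-values rest mostly on the spread pooled over all genes and do not measure that between these libraries.

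With IL-17A at 12 h, Gsdmc2 had 281, 283 and 226 normalized counts in controls and 103, 66.2 and 81.4 in IL17A-12h replicates 1, 3 and 4. Gsdmc3 had 120.03, 65.7 and 135 against 37.5, 72.2 and 33.0, Gsdmc4 had 1207, 573 and 1359.6 against 593, 877 and 875, and Gsdmd had 1198, 1092 and 1594 against 1834, 1963 and 2044. Here Gsdmc2 and Gsdmd did not overlap between groups (2 of 4 members, against 10.9% of 12977 genes). The differences were -1.66 ± 0.21 for Gsdmc2 (limma adjusted p = 0.098), -1.17 ± 0.40 for Gsdmc3 (0.91), -0.35 ± 0.34 for Gsdmc4 (0.93) and 0.61 ± 0.15 for Gsdmd (0.76). Thus 0 of 4 members were called by limma (0.0385% of genes) and by edgeR, Gsdmc2 by DESeq2 (0.393%), and Gsdmc2 and Gsdmc3 by the unadjusted p (1.08%). With the replicate block, which again rests on replicates 1 and 4, limma called Gsdmc2 (-1.45 ± 0.17, adjusted p = 5.4e-15) and Gsdmc3 (-1.83 ± 0.24, adjusted p = 5.3e-12), where 0.925% of genes were called. Gsdmc4 differed by -0.83 ± 0.09 (limma adjusted p = 6.1e-18, under the size needed for a call) and Gsdmd by 0.49 ± 0.08. As with IL-1, these p-values rest mostly on the spread pooled over all genes.

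Between the cytokines at 12 h, 0 of 4 members were called. IL17A-12h minus IL1-12h, on log2 of RPM plus 1, was 0.13 for Gsdmc2 (limma 95% interval -0.32 to 0.59), 0.24 for Gsdmc3 (-0.41 to 0.89), 0.34 for Gsdmc4 (-0.39 to 1.07) and -0.07 for Gsdmd (-0.40 to 0.27). In this comparison limma called 0 of 4 members and 0% of 12965 genes, none of the members passed at an unadjusted p under 0.05, and edgeR also called none of the members. With replicates 1, 3 and 4 as a block (added after the data were seen), limma called 10 of 12897 genes and none of the members, and Gsdmc4 was higher with IL-17A by 0.34 ± 0.07 (adjusted p = 0.00046), below the size needed for a call.

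The IL-1 effect was compared between both times with an interaction in limma. For Gsdmd the effect at 72 h exceeded that at 12 h by 1.16 ± 0.25 (adjusted p = 0.011), and 1 of 4 members was called, with 17.4% of 12953 genes. The differences of the cluster genes were -1.94 ± 0.80 for Gsdmc2, -2.26 ± 0.84 for Gsdmc3 and -3.15 ± 1.23 for Gsdmc4 (limma adjusted p = 0.096, 0.070 and 0.081). The Gsdmd call was lost without Control-12h replicate 4 (1.00, just under the size rule), without Control-72h replicate 1 (0.97) and without the controls filed at both times (0.86, limma adjusted p = 0.13). Since 2 of the 3 controls are the same reads at both times, IL1-72h was also set against IL1-12h with no control library, a comparison chosen after the data were seen. There Gsdmc2 differed by -1.36 ± 0.40, Gsdmc3 by -1.08 ± 0.29, Gsdmc4 by -2.78 ± 0.73 and Gsdmd by 1.06 ± 0.14 (limma adjusted p = 0.029, 0.022, 0.020 and 0.0044). All 4 were called, with 18.9% of genes called and a median of all genes at -0.21, while edgeR called Gsdmd alone.

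The other genes of the gasdermin pathway were read from lists. After 72 h of IL-1, limma and edgeR called 0 of the 4 proteases reported here that cut gasdermins, and Casp4 was called by DESeq2 and at the unadjusted p. Casp1, which cuts Gsdmd, differed by 0.42 ± 0.15 (limma adjusted p = 0.060) and Casp4, the sensor of intracellular lipopolysaccharide, by 1.08 ± 0.46 (0.094). Casp8, which is known to cut Gsdmc and Gsdmd, differed by 0.57 ± 0.16 and did not reach the size rule. With IL-17A, Casp4 rose by 1.83 ± 0.23 (808.8 to 1149.9 against 237.8 to 341, limma adjusted p = 0.023) and was the only one of the 4 to be called. In that comparison 7.94% of all genes were called.

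Of 12 tested inflammasome sensors and adaptors, 3 rose with IL-1 at 72 h. Nlrp9b, a sensor known from intestinal epithelial cells, had 886 to 1969 normalized counts against 68.3 to 106 (3.71 ± 0.34, limma adjusted p = 0.0020). Nlrp10 rose by 1.85 ± 0.36 (adjusted p = 0.0080) and Naip1, a sensor of bacterial type III secretion, by 1.24 ± 0.23 (adjusted p = 0.0064). This share of the list is near the 23.0% of all genes called in the table. The list had a median of 0.66 against 0.00 over all genes. With IL-17A, Nlrp9b alone was called of the 12 (257 to 3064 against 68.2 to 105.8, 3.32 ± 0.81, limma adjusted p = 0.048). This share is near the 7.94% of all genes called with IL-17A at 72 h.

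Among the other gasdermins, Gsdma was low and rose with IL-1 at 72 h (14.4 to 50.8 against 4.24 to 11.4 normalized counts, 2.06 ± 0.62, limma adjusted p = 0.033), and Gsdme, which caspase-3 cuts, differed by -0.44 ± 0.25 (0.20). Neither was called with IL-17A. Of 4 tested genes for pore cargo and membrane rupture, 0 were called by limma, edgeR or DESeq2 with either cytokine at 72 h, nor at the unadjusted p. Among these, Il18 differed by 0.59 ± 0.46 with IL-1 and by -0.35 ± 0.68 with IL-17A, and Ninj1, which ruptures the membrane of dying cells, by 0.03 ± 0.22 and 0.12 ± 0.19. Of 6 regulators, Il4ra, the IL-4 and IL-13 receptor chain, rose with IL-1 (1.07 ± 0.17, limma adjusted p = 0.0043) and with IL-17A (1.18 ± 0.24, limma adjusted p = 0.041), while Stat6 differed by 0.33 ± 0.16 and 0.18 ± 0.17. At 12 h, 0 of the 27 tested genes of these lists were called by limma, edgeR or DESeq2 with either cytokine, and at the unadjusted p 2 passed with IL-1 (Il1a and Il33) and 1 with IL-17A (Il33), which limma also called with the replicate block. The 3 IL-17A calls at 72 h (Casp4, Nlrp9b and Il4ra) held under edgeR and DESeq2. With the replicate block none of these 3 was kept, where 4 of 13073 genes were called. The number of genes called with IL-17A at 72 h also rests on single libraries, as given above. All IL17A-72h libraries were male and Control-72h replicate 1 was the only male control. A fit with library sex rests on that control alone, so these calls could not be checked against sex. The 5 IL-1 calls at 72 h (Gsdma, Il4ra, Naip1, Nlrp10 and Nlrp9b) held under edgeR, DESeq2 and a fit with library sex. With the replicate block, Gsdma and Il4ra lost their calls.

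**Figure D2:**
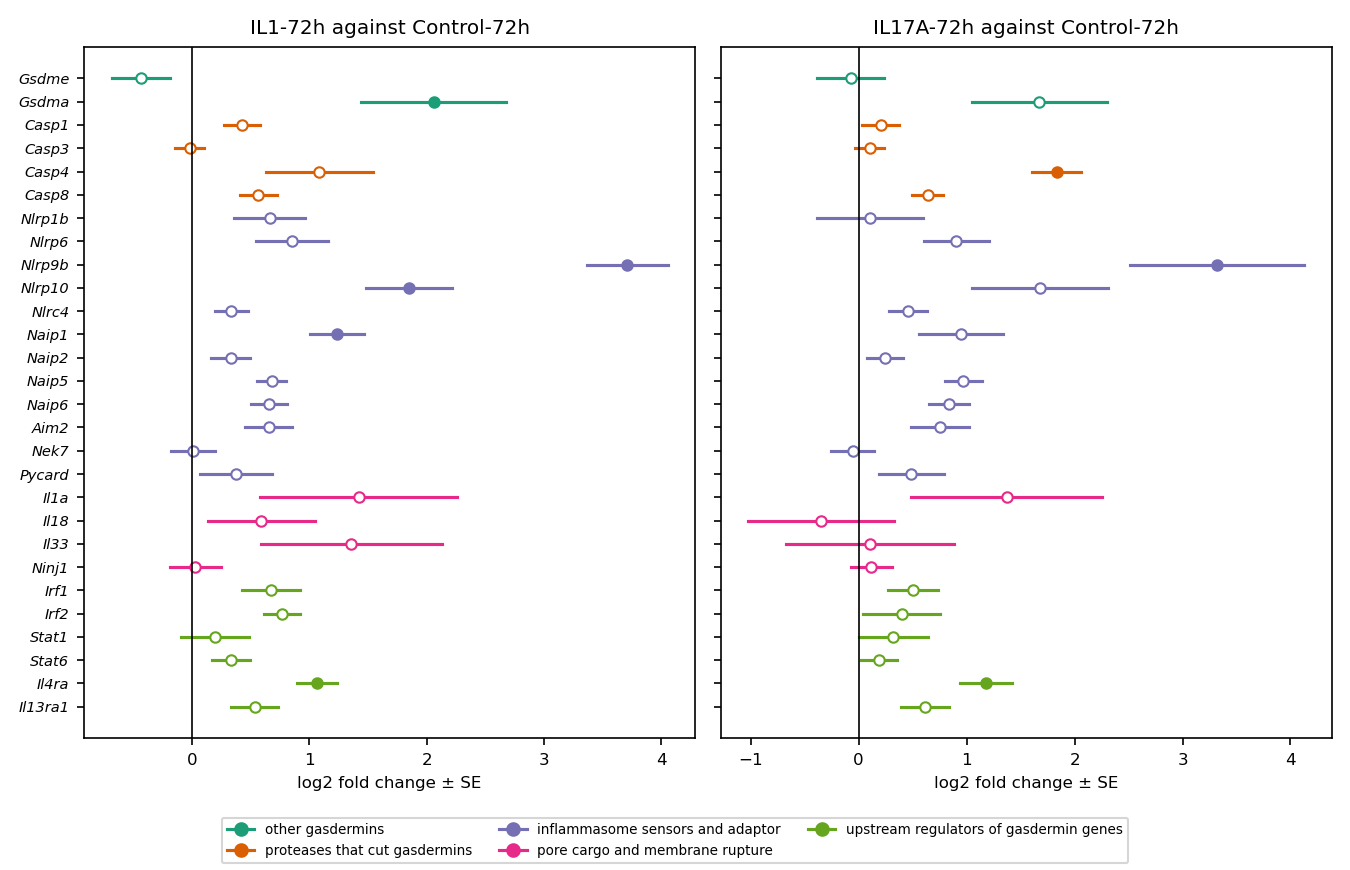
Log2 fold change with its SE (limma on log2 of the normalized count plus 1) for the tested genes of the gasdermin pathway that are not members, after 72 h of IL-1 (left) and of IL-17A (right), filled where called. Nlrp9b lies furthest to the right in both panels, Casp4 is filled on the right alone, and Il4ra in both.

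Cell-type markers moved in the same organoids. Of 12 absorptive colonocyte genes, 7 rose with IL-1 at 72 h, among them Aqp8 (4.11 ± 0.40), Ceacam20 (3.10 ± 0.25) and Slc26a3 (1.78 ± 0.29), and the list summed to 14336 to 22994 RPM against 4809 to 8338 in controls. With IL-17A, 2 of the 12 were called, and the sum was 8492 to 23844. Of 9 goblet markers limma called 0 with either cytokine, and Clca1 was called with IL-1 by edgeR, by DESeq2 and at the unadjusted p. Their sums were 2456 to 10846 with IL-1, 2436 to 9954 with IL-17A and 6741 to 7919 in controls. Of the tuft markers 1 of 3 tested fell with IL-1, Dclk1 (-2.94 ± 0.74, limma adjusted p = 0.017). Leukocyte markers summed to at most 13.9 RPM in any organoid library, with Cd3e, Cd79a, Csf1r, Adgre1, Lyz2, S100a8 and S100a9 at 3 reads or fewer in every group. In these bulk samples, fewer cells of a type and less RNA per cell cannot be told apart, and the part of the shift in absorptive and tuft markers in the gasdermin differences was not tested.

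Among neighbours on the chromosome, 1 gene next to the cluster and 2 next to Gsdmd were called with IL-1 at 72 h. In that comparison 23.0% of all genes were called. No tested neighbour was called with IL-17A at 72 h or with either cytokine at 12 h. Of the 3 nearest protein-coding genes on each side of the cluster, Myc fell with IL-1 at 72 h (-1.36 ± 0.30, limma adjusted p = 0.012), Fam49b differed by -0.57 ± 0.20 (0.050) and Asap1 by 0.96 ± 0.21 (0.011, below the size needed for a call). Adcy8 did not pass, and Fam84b and A1bg had no row in this table. Next to Gsdmd, Zc3h3 rose by 1.42 ± 0.20 and Naprt by 1.75 ± 0.24 (limma adjusted p = 0.0035 and 0.0033), Mroh6 differed by 1.10 ± 0.55 and Eef1d by -0.76 ± 0.16, and Rhpn1 and Mafa were below the filter.

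Over the 16 distinct organoid libraries, the genes most like Gsdmc4 in log2 RPM, among 12967 genes, were Bscl2 and Ggact (Pearson r = 0.98 for both), then Ufc1, Prorsd1 and Gm45889 (0.97 for each). The cluster genes were less like it, at 0.92 for Gsdmc3 and 0.87 for Gsdmc2, and Gsdmd ran against it at -0.78. Most like Gsdmd were Syt7, Gch1, Dlk1, Vopp1 and Nlrp9b (r = 0.96 for each), and over the 18 labelled libraries Rnf39 took the place of Nlrp9b. These libraries fall into treatment groups and share controls, so the values describe likeness over treatments and carry no test.

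In sorted goblet cells, no member was called by limma without a block after deletion of Smad4 or Alk3 in the stroma, in either segment. In GS4M2-Proximal cells as the deposited columns name them, Gsdmc2 had 4755 and 8978 normalized counts against 3057 and 3782 in GWTM2-Proximal, Gsdmc3 had 1768 and 3263 against 1211 and 1156, and Gsdmc4 had 3869.9 and 7594 against 3005 and 3972. Gsdmc2 and Gsdmc3 did not overlap between groups and Gsdmc4 did, where 50.2% of all genes did not overlap. The differences were 0.94 ± 0.29 (limma adjusted p = 0.20), 1.02 ± 0.27 (0.17) and 0.65 ± 0.31 (0.36), and Gsdmd, at 1445 and 2241 against 1647 and 1382, differed by 0.25 ± 0.22 (0.59). Thus 0 of 4 members were called by limma (0.325% of 13246 genes) and by edgeR, while Gsdmc3 was called by DESeq2 (2.04%) and at the unadjusted p (4.28%). The column names of this one table stand the other way round in a supplementary table of the study, and with them the sign of these differences would turn.

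In GS4M2-Distal cells all 4 members overlapped with their controls, where 45.7% of all genes did not. Gsdmc4 had 7194 and 12839 normalized counts against 3480.0 and 11673, Gsdmc2 had 4039 and 6576 against 1548 and 6555, Gsdmc3 had 1133 and 2104 against 764 and 2175, and Gsdmd had 1476 and 2123 against 2724 and 1435. GWTM2-Distal replicate 2 held several times the cluster reads of replicate 1, and the differences were 0.69 ± 0.70 for Gsdmc2, 0.26 ± 0.56 for Gsdmc3, 0.59 ± 0.62 for Gsdmc4 and -0.16 ± 0.35 for Gsdmd. Limma called 0 of 4 members and 0% of 13078 genes, and edgeR and DESeq2 called none of the members. At an unadjusted p under 0.05 and the fold rule, 2.70% of genes and 0 members passed. Without GWTM2-Distal replicate 1 the differences turned, to -0.35, -0.49, -0.28 and 0.30, and without replicate 2 that of Gsdmc2 stood at 1.73. Replicate 1 was the only female library here, so a fit with library sex gave the same values and is no separate check.

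After Alk3 deletion Gsdmc4 lay below its controls in both segments, without passing the test. In GA3M2-Proximal cells Gsdmc4 had 1166 and 2013 normalized counts against 3199.6 and 4199, a difference of -1.26 ± 0.30 (limma unadjusted p = 0.0054, adjusted p = 0.20). Gsdmd had 2115 and 2815 against 1754 and 1461, a difference of 0.61 ± 0.21 (adjusted p = 0.28), again without overlap. The groups did not overlap in 52.1% of all genes here. Gsdmc2, at 1681 and 4401 against 3254 and 3999, and Gsdmc3, at 618 and 1932 against 1289.5 and 1222, overlapped. Here 0 of 4 members were called by limma (0.0899% of 13346 genes) and by edgeR, and Gsdmc4 was called by DESeq2 (3.23%) and at the unadjusted p (6.83%).

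In GA3M2-Distal cells Gsdmc4 had 2143 and 2493 normalized counts against 3329 and 11267, a difference of -1.41 ± 0.55 (limma unadjusted p = 0.046, adjusted p = 0.42). Gsdmc2 had 1203 and 1809 against 1481 and 6327, Gsdmc3 had 357 and 752 against 731 and 2099, and Gsdmd had 2328 and 2316 against 2606 and 1385. Gsdmc4 alone of these did not overlap, where 44.2% of all genes did not. Limma called 0 of 4 members and 0% of 13082 genes, and edgeR and DESeq2 called none of the members. At the unadjusted p, Gsdmc4 passed, with 4.12% of genes. The effects in both segments were compared with interactions in limma, and 0 of 4 members differed between proximal and distal colon in GS4M2 (0% of 12994 genes called) or GA3M2 (0% of 13189), at an unadjusted p under 0.05 as well as with edgeR. Leukocyte markers summed to 31.2 to 41.0 RPM in GA3M2 libraries against 5.94 to 15.9 in GWTM2, and the summed goblet markers were 10229 to 13861 RPM in GA3M2-Proximal against 31165 to 34643 in its controls, and 15445 to 24670 in GA3M2-Distal against 36236 to 63436. Of the 9 goblet markers limma called 1, Muc2, the main secreted mucin of the colon, which fell in GA3M2-Proximal (-3.63 ± 0.34, limma adjusted p = 0.046). The part of leukocyte RNA and of this difference in goblet markers was not tested. The sexes differed between GWTM2 and knockout libraries, and GWTM2-Distal replicate 1 was the only female library in the GA3M2-Distal comparison. A fit with library sex therefore left GWTM2-Distal replicate 2 as the only control. The differences were then -2.10 for Gsdmc2, -2.02 for Gsdmc3 and -2.28 for Gsdmc4.

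**Figure D3:**
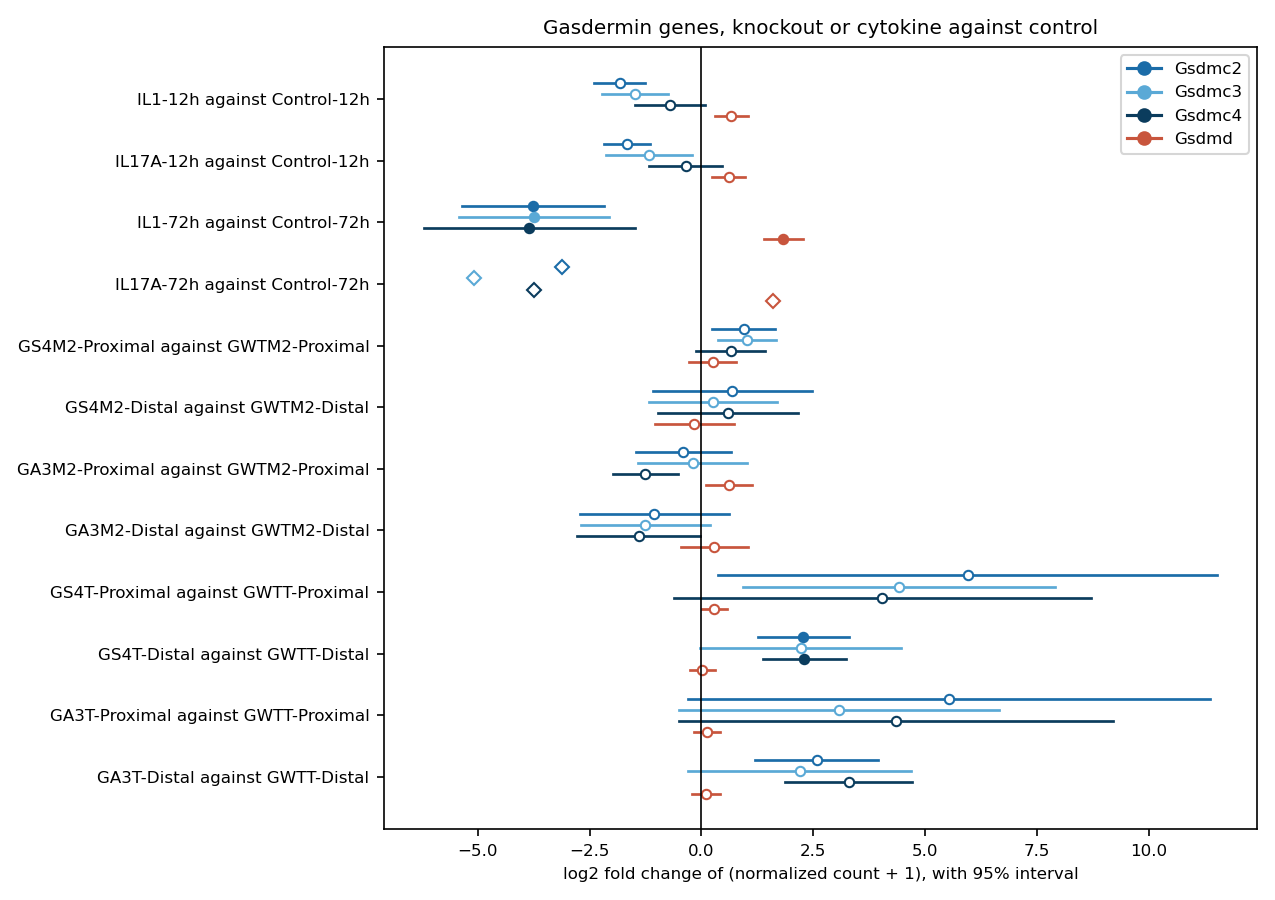
Log2 fold change of the normalized count plus 1 with its 95% interval (limma) for Gsdmc2, Gsdmc3, Gsdmc4 and Gsdmd in the 12 comparisons, filled where called, and as open diamonds with no interval for the 72 h IL-17A contrast that chose the genes. The 3 cluster genes lie left of 0 and Gsdmd right of 0 in all 4 organoid comparisons, and the stromal comparisons show cluster points right of 0 with wide intervals.

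In tdTomato-sorted cells Gsdmc2, Gsdmc3 and Gsdmc4 had higher values in both knockouts and both segments, without overlap with their controls, and Gsdmd differed by at most 0.29 on the log2 scale. Groups did not overlap in 67.5% of all genes in GS4T-Distal, 65.4% in GS4T-Proximal, 54.3% in GA3T-Distal and 56.4% in GA3T-Proximal. GS4T-Distal was the one knockout comparison of sorted cells in which members were called in the fit without a block. There Gsdmc2 had 276 and 499 normalized counts against 55.7 and 103 in GWTT-Distal, a rise of 2.28 ± 0.41 or 4.90-fold (388 ± 157 against 79.2 ± 33.1, SD, n = 2; limma adjusted p = 0.015). Gsdmc4 had 446 and 543 against 67.5 and 145, a rise of 2.30 ± 0.38 or 4.65-fold (494 ± 67.9 against 106 ± 55.0, limma adjusted p = 0.011). Gsdmc3, at 71.7 and 96.3 against 5.87 and 46.5, differed by 2.22 ± 0.91 (adjusted p = 0.13), and Gsdmd, at 1237 and 1353 against 1345 and 1211, by 0.02 ± 0.12 (0.92). Thus 2 of 4 members were called, with 14.0% of 15262 genes. The Gsdmc4 call was lost without GS4T-Distal replicate 1 (limma adjusted p = 0.057), and the Gsdmc2 call without GS4T-Distal replicate 2 (0.053) or GWTT-Distal replicate 1 (0.057).

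In the other stromal comparisons no member passed. In GS4T-Proximal cells Gsdmc2 had 563 and 842 normalized counts against 0 and 123, Gsdmc3 had 184 and 399.7 against 2.07 and 52.3, and Gsdmc4 had 356 and 402 against 2.07 and 171. Gsdmd had 1462 and 1413 against 1109 and 1245 (0.29 ± 0.11, limma adjusted p = 0.13). GWTT-Proximal replicate 1 held 4 reads of the 3 cluster genes in all and replicate 2 held 338, so fitted values there depend on the pseudocount and are wide, at 5.95 ± 2.19, 4.41 ± 1.37 and 4.04 ± 1.83 (limma adjusted p = 0.13, 0.090 and 0.19). Limma called 0 of 4 members (9.61% of 15319 genes), edgeR and DESeq2 called none of them, and Gsdmc2 and Gsdmc3 passed at the unadjusted p (16.0%). With single libraries left out, differences were 2.48 to 9.43 (Gsdmc2), 2.35 to 6.47 (Gsdmc3) and 1.14 to 6.95 (Gsdmc4). Such fits leave 1 library in a group, so their calls are not given.

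In GA3T-Proximal cells Gsdmc2 had 429 and 648 normalized counts against 0 and 129, Gsdmc3 had 89.2 and 139 against 2.18 and 54.9, and Gsdmc4 had 418 and 567 against 2.18 and 179.9. Gsdmd had 1329 and 1356 against 1167 and 1309. Limma called 0 of 4 members (0.358% of 15346 genes), as did edgeR, DESeq2 and the unadjusted p (9.46%). With single libraries left out, differences were 2.02 to 9.04 for Gsdmc2 and 1.43 to 7.26 for Gsdmc4. In GA3T-Distal cells Gsdmc4 had 1801 and 688 against 77.0 and 165 (3.29 ± 0.56, 10.3-fold, limma adjusted p = 0.11), Gsdmc2 had 853 and 318 against 63.6 and 117 (2.58 ± 0.54, 6.49-fold, adjusted p = 0.13), and Gsdmc3 had 129 and 65.9 against 6.69 and 52.9. Gsdmd had 1668 and 1458 against 1534 and 1378 (0.10 ± 0.13). Here limma called 0 of 4 members and 0% of 15414 genes, as did edgeR for the members, while Gsdmc2 and Gsdmc4 were called by DESeq2 (5.03%) and at the unadjusted p (7.77%). By interactions in limma, 0 of 4 members differed between the segments in GS4T (0.189% of 15310 genes called) or GA3T (0% of 15301), at an unadjusted p under 0.05 as well as with edgeR. Without GWTT-Proximal replicate 2, both interactions rest on 1 proximal control with 4 cluster reads, so calls of those fits are not given. Comparisons of GS4 and GA3 share their control libraries, so their values are not separate repeats.

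**Figure D4:**
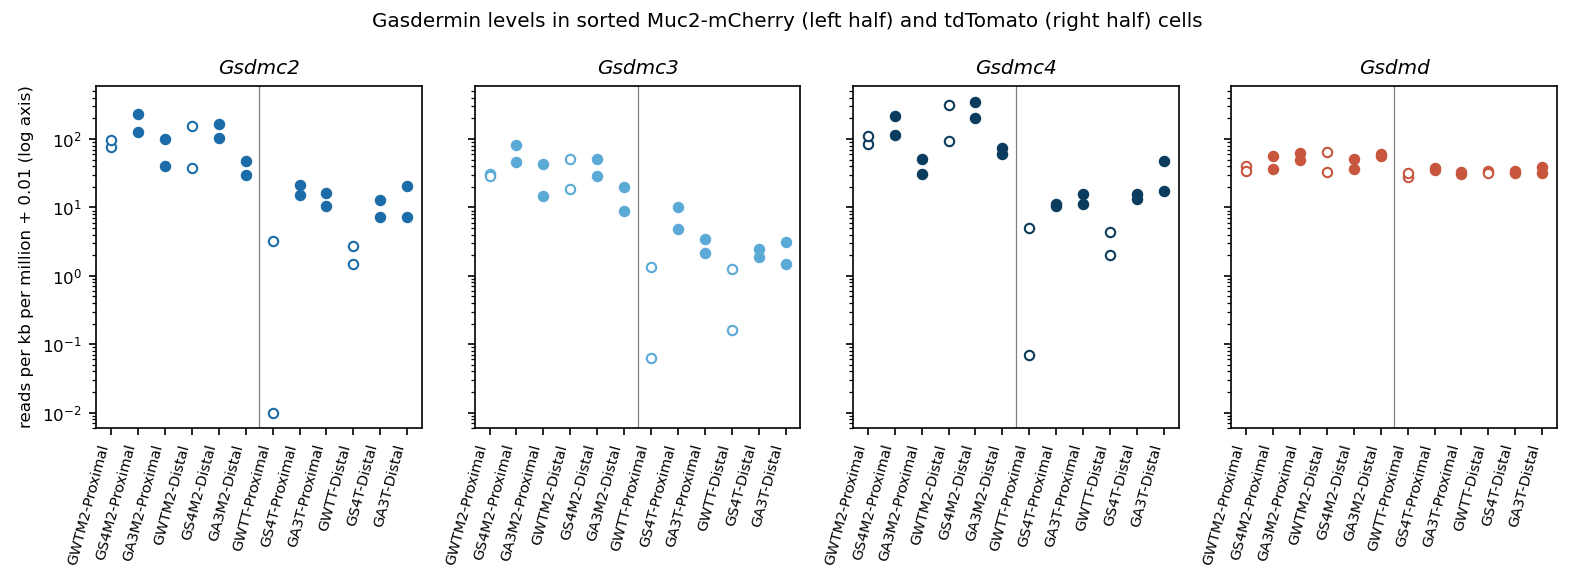
RPKM plus 0.01 (log axis) of the 4 genes in each library of sorted Muc2-mCherry cells (left side) and tdTomato cells (right side), with open points for controls. The cluster genes span several powers of 10 between control stromal and goblet libraries, while Gsdmd stays between 27.6 and 64.7 RPKM in all of them.

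Markers of the epithelium moved with the cluster in tdTomato-sorted cells. Epcam, an epithelial surface protein, had 51 and 1035 reads in the GWTT-Proximal libraries, 150 and 436 in GWTT-Distal, and 1195 to 3931 in the 8 knockout libraries. The summed reads of Gsdmc2, Gsdmc3 and Gsdmc4 were 4 and 338, 132 and 304, and 897 to 3702 in the same order. Per 100 Epcam reads the stromal libraries held 7.84 to 111 cluster reads and the goblet libraries 8.68 to 67.8. Limma called all 10 epithelial markers higher in GS4T-Distal (14.0% of all genes called) and 1 of 10 in GS4T-Proximal (9.61%). The median log2 difference of these markers was 3.35 in GS4T-Distal and 4.16 in GS4T-Proximal. It was 2.77 in GA3T-Distal and 3.01 in GA3T-Proximal. In the GA3T comparisons limma and edgeR called 0 of 10, DESeq2 called 5 in the distal and 0 in the proximal colon, and 10 and 1 passed at the unadjusted p. Their sum was 16.5 to 603 RPM in control and 508 to 1863 in knockout stromal libraries, against 10290.3 to 16754 in goblet cells, and stromal markers summed to 41862 to 51339 in control stromal cells. Leukocyte markers summed to 191 to 572 in control and 576 to 1671 in knockout stromal libraries. The part of epithelial RNA in the stromal cluster values was not tested.

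**Figure D5:**
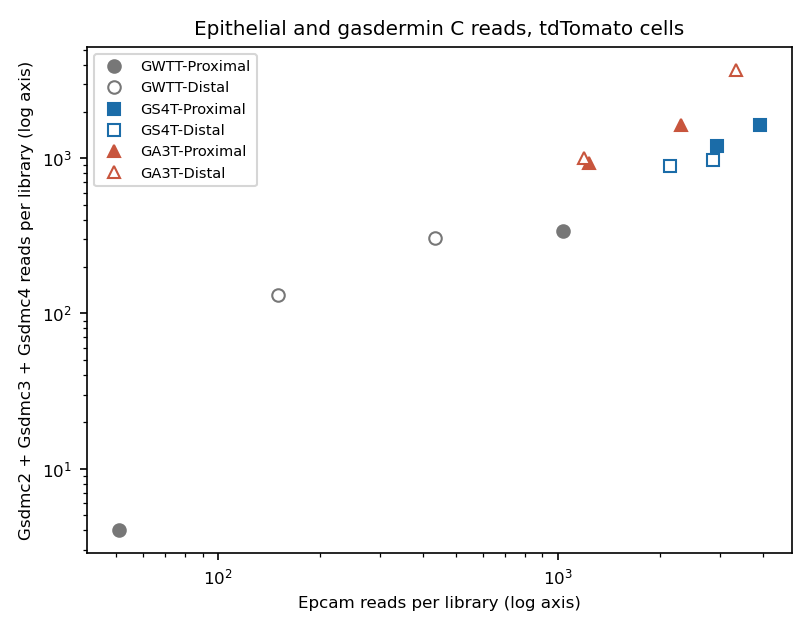
Summed reads of Gsdmc2, Gsdmc3 and Gsdmc4 against Epcam reads in each of the 12 tdTomato libraries (both axes log). All 4 controls lie low on both axes, at 51 to 1035 Epcam and 4 to 338 cluster reads, and all 8 knockouts lie above them, at 1195 to 3931 and 897 to 3702.

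Other genes of the gasdermin pathway rose in GS4T cells, where Gsdmd was not called. In GS4T-Distal cells, 9 of 13 tested sensors and adaptors rose, among them Nlrp3 (1.91 ± 0.36) and Naip2 (2.08 ± 0.23), where 14.0% of all genes were called. In GS4T-Proximal cells 2 of 13 rose, Nlrp3 (3.21 ± 0.41) and Naip5 (2.26 ± 0.33), a share near the 9.61% of all genes called. Leukocyte markers rose in the same cells, 5 of 11 tested in GS4T-Distal (Itgam, Lyz2, S100a8, S100a9 and Cd68, while Cd79a fell) and 6 of 10 in GS4T-Proximal (these 5 and Csf1r), and their part in the pathway values was not tested. Il1a and Il1b, encoding both IL-1 cytokines, rose in GS4T-Distal (4.76 ± 0.38 and 2.86 ± 0.34, limma adjusted p = 0.0017 and 0.0048) and in GS4T-Proximal cells (5.39 ± 0.52 and 3.57 ± 0.31, limma adjusted p = 0.0077 and 0.0065). Il18 rose in GS4T-Proximal cells (1.78 ± 0.34), and Casp8 rose in both segments (1.06 ± 0.15 distal and 1.24 ± 0.13 proximal), as did Il4ra and Il13ra1. Irf1, an interferon-induced transcription factor, fell in GS4T-Proximal cells (-1.01 ± 0.14). In GA3T cells limma called Il1b alone of these lists, in the proximal colon (2.60 ± 0.24, limma adjusted p = 0.0496), while edgeR called 0 and DESeq2 7 of the 31 tested genes in each segment. In goblet cells, 0 of the 26 tested genes of these lists were called by limma or edgeR in any of the 4 comparisons. DESeq2 called Nlrp9b in GA3M2-Proximal and Il18 in GS4M2-Proximal, and at the unadjusted p Il18 passed in both and Nlrp9b in GA3M2-Proximal.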

How the data were processed

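RNA was measured in sorted goblet and stromal cells and in organoids of mouse colon, in 12 tables of 1 knockout or cytokine group and its control. The authors mapped reads uniquely to mm10 with STAR 2.5.3 and deposited gene counts divided by DESeq2 1.28.1 size factors (versions from the submitters' processing notes). These normalized values, a signal per gene, are the deposited unit. The annotation used for counting was not given in the sources used here. No column was left unused (0). Rows with no gene symbol, up to 28.2% of reads, stayed out. Steps between values gave whole reads for 100% of values (tolerance 0.1), which set depth, RPM (reads scaled to 1e6 per library), RPKM and the count tests.

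Each table was fitted with limma 3.58.1 (R 4.3.3, trend) on log2(value + 1) for genes with a mean of at least 10, Benjamini-Hochberg over all, called where the adjusted p was under 0.05 with a log2 change of 1 or more in size. Interactions compared segments and times. Replicate numbers came from the labels. At 12 h same-numbered libraries deviated together (r = 0.62 to 0.64 between each cytokine and its controls, 2 shared numbers, and 0.69 to 0.91 between the cytokines, 3 shared numbers), with replicates 3 and 4 as alike across numbers (0.68 and 0.70), so blocked values stand beside the 12 h results. edgeR 4.0.16 (TMM, quasi-likelihood) and DESeq2 1.42.0 on recovered reads, pseudocounts 0.1 and 10, filters, scaling, blocks and left-out libraries were alternatives. The fits were also run on simulated counts with the same dispersion for every gene and comparison. Those runs do not show how the fits perform at the spread between these libraries. Intervals on read sums cover counting error only. Named were the 5 genes, list genes that were called (and a few listed pathway genes that were not, chosen after their values were seen), 3 protein-coding neighbours on each side, the 5 most similar genes for Gsdmc4 and Gsdmd, and Smad4 and Bmpr1a. 1 gene of the lists is not reported here and stays out of the list counts. Members and lists were chosen with earlier results of these data known. On recovered reads, edgeR called 2971 and DESeq2 3189 genes for IL-1 at 72 h, 869 and 2311 for IL-17A.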

Additional observations from a re-analysis of the deposited data

Results flagged for a closer look

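Gsdmd is raised because its response to IL-1 differed between the 2 times: the log2 effect at 72 h exceeded that at 12 h by 1.16 (limma interaction, adjusted p = 0.011). Every treated library was above every control at both times, 3 of 3 at 12 h and 3 of 3 at 72 h. Groups did not overlap in 9.53% of all genes at 12 h and 54.7% at 72 h. In the interaction 17.4% of all genes were called, and the Gsdmd call was lost without Control-12h replicate 4 or without Control-72h replicate 1. The control groups share reads, since 2 of the 3 control libraries are the same at both times, and without them the difference was 0.86 (limma adjusted p = 0.13).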

How the results depend on the processing

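The comparisons with IL-1 at 72 h kept all 4 members under edgeR, DESeq2, the unadjusted p, other pseudocounts and filters, upper-quartile scaling, 4 distinct controls pooled over both times and both blocks, and lost Gsdmc4 at most when 1 library was left out (3 to 4 members called). Upper-quartile scaling left the median of all genes at -0.10 with IL-1 and -0.11 with IL-17A at 72 h, and pooled controls left it at -0.26 with both. Without the controls filed at both times, 0 members were called for IL1-72h and 0 for the IL-1 time difference. The causes of the changes below were not tested.

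Same-numbered libraries deviated together at r = -0.06 to 0.30 in sorted cells and -0.19 to 0.20 at 72 h, over 2 shared numbers a comparison, so there the samples share only a number. With the replicate block, members called were 1 in GA3M2-Proximal, 1 in GS4M2-Proximal, 1 in GS4T-Proximal, 3 in IL1-12h and 2 in IL17A-12h, each against 0 without it, and the other tested counts of members did not change. Counts over all genes under the block were 699 in GA3M2-Proximal, 62 in GA3T-Distal, 253 in GA3T-Proximal, 260 in GS4M2-Proximal, 4 in GA3M2-Distal, 100 in IL1-12h, 120 in IL17A-12h, 1513 in IL1-72h and 4 in IL17A-72h. Of the gasdermin pathway genes, the block left 3 of 5 calls in IL1-72h (without Gsdma and Il4ra) and 0 of 3 in IL17A-72h.

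With library sex blocked (added after the data were seen), members called were 1 in IL1-12h and 1 in IL17A-12h. All-gene counts were 27 and 36 there. In GA3T-Proximal library sex went with the replicate number in both groups. The sex block there is the same fit as the replicate block (253 genes called) and is no separate check. In GA3M2-Distal, GA3M2-Proximal, GS4M2-Distal, GS4M2-Proximal, GA3T-Distal, GS4T-Proximal and IL17A-72h this block left 1 library in a group, so no counts are given. In GS4M2-Distal the sex block gave the same values as leaving out GWTM2-Distal replicate 1. The direction turned for Gsdmc2 (-0.35), Gsdmc3 (-0.49), Gsdmc4 (-0.28) and Gsdmd (0.30).

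The unadjusted p called 1 member in GA3M2-Distal, 1 in GA3M2-Proximal, 2 in GA3T-Distal, 1 in GS4M2-Proximal, 2 in GS4T-Proximal, 2 in IL1-12h and 2 in IL17A-12h. DESeq2 called 1 in GA3M2-Proximal, 2 in GA3T-Distal, 1 in GS4M2-Proximal, 2 in IL1-12h and 1 in IL17A-12h, and a pseudocount of 10 called 1 in GS4T-Proximal. For IL1-72h against IL1-12h, edgeR called 1. Gsdmc3 in GA3M2-Proximal turned to 0.022 under DESeq2 and 0.021 under edgeR.

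All-gene counts by limma, DESeq2, edgeR and the unadjusted p were 12, 431, 14 and 911 in GA3M2-Proximal, 0, 240, 0 and 539 in GA3M2-Distal, 0, 776, 0 and 1197 in GA3T-Distal, 55, 969, 0 and 1451 in GA3T-Proximal, 0, 147, 0 and 353 in GS4M2-Distal, 43, 270, 51 and 567 in GS4M2-Proximal, 7, 43, 2 and 119 in IL1-12h, 5, 51, 4 and 140 in IL17A-12h, and 1038, 2311, 869 and 2688 in IL17A-72h. In GS4T-Proximal the unadjusted p gave 2446 against 1472. With a pseudocount of 0.1, GA3T-Proximal had 6, the GS4T segment difference 0 against 29 (edgeR 1), and GWTT by segment 47 against 88 (edgeR 48).

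With each library left out in turn, a group of sorted cells is left with 1 library that is assumed to vary like the others. Counts of members called are therefore not given for sorted cells. In the IL-1 time difference, members called ranged from 0 to 4, with 1259 to 2872 of 12953 genes called. For IL1-72h against IL1-12h they ranged from 1 to 4, with 1588 to 3086 genes called. Values that changed direction ranged as follows: Gsdmc2 in GA3M2-Proximal from -1.10 to 0.29, in GS4M2-Distal from -0.35 to 1.73 and in IL17A-12h against IL1-12h from -0.031 to 0.27, Gsdmc3 in the same from -1.02 to 0.62, -0.49 to 1.01 and -0.024 to 0.40, Gsdmc4 in GS4M2-Distal from -0.28 to 1.47, and Gsdmd in GA3M2-Distal from -0.17 to 0.74, GS4M2-Distal from -0.62 to 0.30, GS4M2-Proximal from -0.062 to 0.57 and GS4T-Distal from -0.055 to 0.10.

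With 2 libraries a group in sorted cells, few reads of Gsdmc3 after 72 h of cytokine and shared stretches among the cluster genes, small differences in these were not detectable at this depth.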
